A study of Mus musculus with 4 samples.

Results

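The genes described here were the 4 MiT/TFE transcription factors, Mitf, Tfe3, Tfeb and Tfec, and 5 genes of their Rag-folliculin control, Flcn, Fnip1, Fnip2, Rragc and Rragd. They were chosen by symbol, and every deposited exon that the GENCODE M21 annotation placed in 1 of these 9 genes was kept. This gave 150 exons of the 226463 exons and 9 of the 22823 genes of the table. The number of exons ranged from 7 in Tfec and Rragc to 30 in Tfeb, and annotated isoforms made many of them overlap.

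The study asked what Dox-induced expression of the melanocyte isoform of Mitf (M-Mitf) does to mouse embryonic fibroblasts (MEFs). Poly(A) RNA was sequenced from 1 library each of wild-type MEFs at passage 3 (MEF), Mitf knock-in MEFs at passage 5 without Dox (Dox (-)) and Mitf knock-in MEFs at passage 5 after 6 days of Dox (Dox (+)). Both knock-in libraries carried the same alleles, the M2rtTA transactivator at ROSA26 and a single copy of TetO-Mitf at Col1a1. These cells came from 1 embryonic stem cell clone, through chimeric embryos that also contain host cells, and an mCherry allele and puromycin resistance let the transgenic cells be purified. Whether host cells remained in the sequenced cultures was not tested. A library of primary mouse melanocytes belongs to the series and was not analysed here. A Dox-treated culture without the transgene was not analysed here either, so Dox and Mitf cannot be told apart. The deposited MEF column holds other values than the column of that name in the supplementary data of the study, and 1 further column, whose name matches no sample, was not used. The MEF column was assigned by its name alone, so which culture it holds is uncertain. MEF below means the library of that column, and every comparison with it carries this doubt. With 1 library per group there was no replicate check and no test between conditions. Intervals below are 95% intervals for counting error only, and reads that shared a polymerase chain reaction product were not separated.

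MiT/TFE factors are basic helix-loop-helix leucine zipper proteins that bind E-box motifs as homodimers or as heterodimers with each other, and Mitf is known for directing melanocyte development. When nutrients are plentiful, Rag GTPase dimers at the lysosome bind Tfeb, Tfe3 and the longer Mitf isoforms and present them to mTORC1, whose phosphorylation keeps them in the cytoplasm. Folliculin (Flcn), with its partner Fnip1 or Fnip2, is the GTPase-activating protein for RagC and RagD, which is the step that lets the factors be recruited.

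The 4 factors share an exon of 76 bases that encodes part of the basic region and the first helix, by which they bind DNA and pair. It is shown because the reads that fall on it compare the 4 genes over the same length. Capitals mark the 45 bases that are identical in all 4 mouse genes (GENCODE M21 transcripts, mm10).
Mitf, chr6:98010395-98010470, plus strand: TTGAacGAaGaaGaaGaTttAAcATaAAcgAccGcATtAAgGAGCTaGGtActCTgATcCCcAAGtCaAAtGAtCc
Tfe3, chrX:7770995-7771070, plus strand: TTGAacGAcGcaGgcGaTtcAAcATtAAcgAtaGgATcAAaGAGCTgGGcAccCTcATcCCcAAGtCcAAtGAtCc
Tfeb, chr17:47788909-47788984, plus strand: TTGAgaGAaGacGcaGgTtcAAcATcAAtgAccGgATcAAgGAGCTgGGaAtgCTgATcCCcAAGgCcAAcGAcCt
Tfec, chr6:16840469-16840544, minus strand: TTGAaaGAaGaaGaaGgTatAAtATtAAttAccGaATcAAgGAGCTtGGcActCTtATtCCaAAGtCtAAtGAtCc
Pairs of these exons were identical at 72.4% to 80.3% of bases, and the longest run of identical bases in any pair was 12.

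A second stretch is shown because it separates the isoforms that the Rag GTPases can bind from the isoform that was induced. Mitf exon 1B1b and the matching exons of Tfe3 and Tfeb encode the amino-terminal segment known to bind the Rag dimer. Capitals mark the 23 of 36 bases identical in the 3 genes.
Mitf, chr6:97941109-97941144, plus strand: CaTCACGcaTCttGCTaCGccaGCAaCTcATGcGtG
Tfe3, chrX:7766653-7766688, plus strand: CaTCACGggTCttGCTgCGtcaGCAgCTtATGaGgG
Tfeb, chr17:47785991-47786026, plus strand: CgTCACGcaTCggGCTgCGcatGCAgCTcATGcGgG
M-Mitf begins instead with exon 1M, of which 33 of 162 bases are coding. Its coding bases at chr6:97991921-97991953 (plus strand, start codon in capitals) are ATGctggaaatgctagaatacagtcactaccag, and they do not hold the segment above.

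Levels are RPKM, which are read counts scaled by exon length and by the aligned reads of the library. Each gene was given the RPKM of its most highly covered exon, a rule taken from the methods. That exon can differ between libraries, so a ratio of levels can compare different exons. A gene was called different when the levels were over 4-fold apart and at least 1 of them was above 10 RPKM. In Dox (+) against Dox (-), 2 of the 9 genes were called higher (Mitf and Rragd), against 1.64% of all 13300 genes tested, and 1 was called lower (Tfec), against 5.41%. Mitf is the gene that Dox was used to induce, so its call was set by the design, here and at 2-fold. At 2-fold, Fnip2 joined the higher genes, giving 3 of 9 against 10.8% of all genes, and 1 of 9 was lower against 11.1%. The remaining 5 genes, Tfe3, Tfeb, Flcn, Fnip1 and Rragc, lay within 2-fold. The median gene of the table was 0.23 higher in Dox (+) on the log2 scale of RPKM plus 1, and the median of the 9 genes was 0.02.

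**Figure D1:**
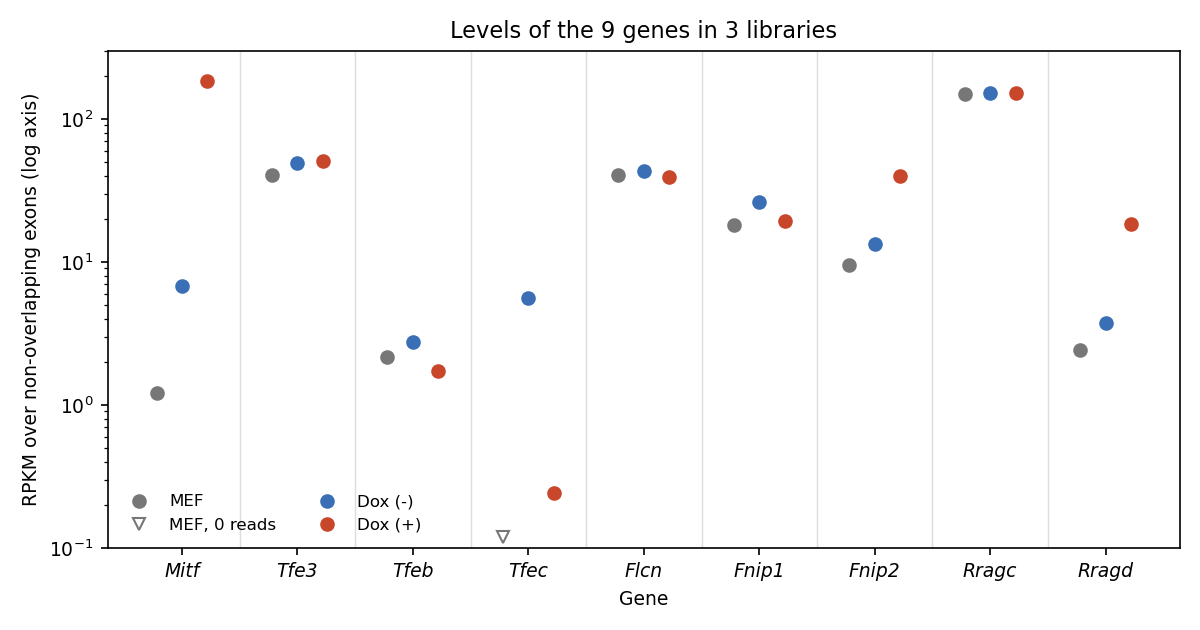
RPKM over all non-overlapping exons of each gene (y axis, log scale) in the MEF, Dox (-) and Dox (+) libraries, 1 point per library, with an open triangle where a library had 0 reads. Mitf, Fnip2 and Rragd were highest in Dox (+), at 183, 40.1 and 18.3 RPKM, Tfec was highest in Dox (-) at 5.58 RPKM, and Rragc lay between 148 and 153 RPKM in the 3 libraries.

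Mitf was the gene that the Col1a1 knock-in carried, and its reads showed where the added transcript lay. The 7 internal exons of M-Mitf are called shared, since other annotated isoforms also hold them, though not all isoforms hold each. They were 47.2- to 63.6-fold higher in Dox (+) than in Dox (-). The exons used only by other promoters did not share that fold. The most upstream first exon (chr6:97807058-97807287) had 0 reads in MEF, 31 in Dox (-) and 32 in Dox (+), a ratio of 1.06 (0.624 to 1.79) between the knock-in libraries. A second upstream first exon had 0, 16 and 26 reads, a ratio of 1.66 (0.859 to 3.32). Both intervals included 1.

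Exon 1B1b, which holds the Rag-binding segment printed above, had 7 reads in MEF, 45 in Dox (-) and 84 in Dox (+). Its ratio between Dox (+) and Dox (-) was 1.91 (1.31 to 2.81), far below that of the shared exons. Exon 1M (chr6:97991792-97991953), the start of the melanocyte isoform, had 2, 32 and 642 reads, a ratio of 20.5 (14.4 to 30.3). In Dox (+) its level was 90.1 RPKM, compared with 401 RPKM in the next exon and 1544 RPKM in the 76-base exon. At the other end, the part of the last exon that the short form keeps, with 399 of 934 bases coding, had 55, 360 and 10286 reads and was 29.2-fold higher in Dox (+). The rest of the long last exon, all untranslated, had 190, 536 and 450 reads, a ratio of 0.859 (0.756 to 0.975). The ratios of 20.5 and above thus lay between exon 1M and the end of the short last exon, and exon 1B1b, upstream of them, was also higher in Dox (+).

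**Figure D2:**
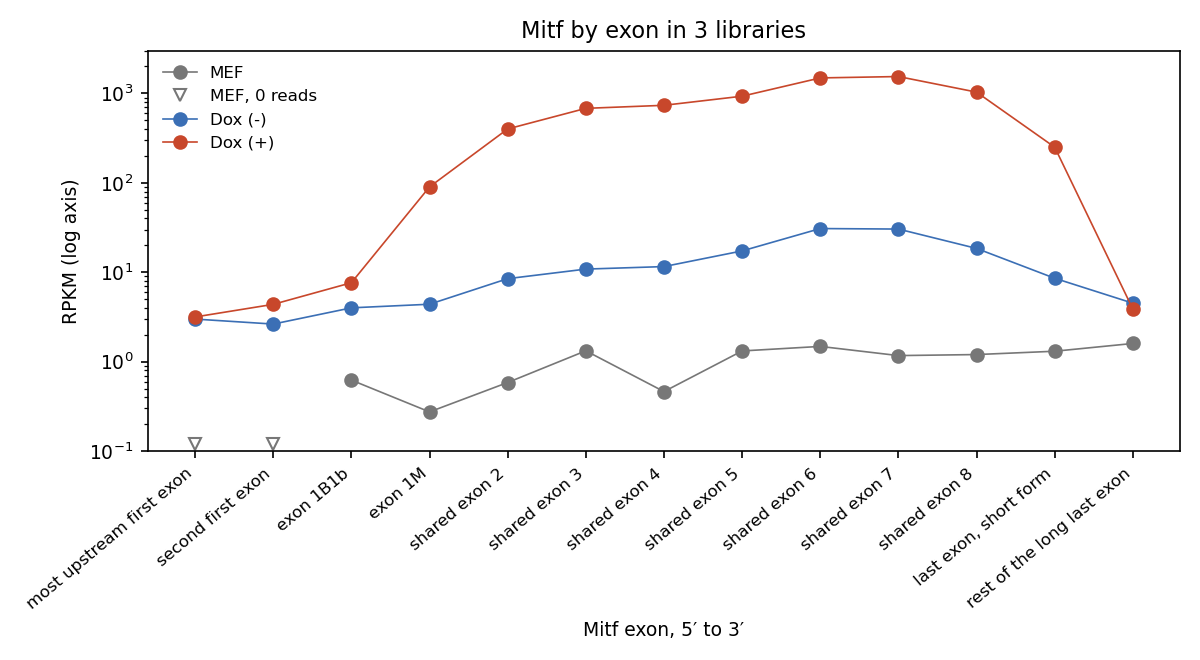
RPKM of each Mitf exon from 5′ to 3′ (y axis, log scale) in the MEF, Dox (-) and Dox (+) libraries, with lines joining the exons of 1 library and open triangles for 0 reads. Dox (+) and Dox (-) lay close at the most upstream first exon (3.16 and 3.00 RPKM) and at the end of the long last exon (3.87 and 4.51 RPKM), and they were furthest apart over the shared exons.

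Mitf was already higher in the untreated knock-in library than in the library labelled MEF. Its shared internal exons held 2 to 8 reads each in MEF and 41 to 123 in Dox (-), 8.20- to 26.0-fold more. Over all exons Mitf had 291 reads in MEF, 1621 in Dox (-) and 42810 in Dox (+). Unlike the difference between the knock-in libraries, that between Dox (-) and MEF also covered the upstream first exons (0 against 31 and 0 against 16 reads) and the untranslated end of the long last exon (2.82-fold, 2.39 to 3.35).

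Tfe3, on chromosome X at 7762560 to 7775202, is broadly expressed, and it was the family member with the most reads in both libraries without Dox. It had 6526 reads in MEF, 7901 in Dox (-) and 8064 in Dox (+) over its non-overlapping exons. The ratio between Dox (+) and Dox (-) was 1.04 (1.01 to 1.08), less than the 0.23 log2 shift of the median gene. The exons were not uniform: of 24, 9 were higher in Dox (+), 4 were lower and 11 had an interval that included 1. The 4 lower ones were versions of the long last exon (3740, 4311 and 3896 reads), and the highest ratio was in the 246-base exon at chrX:7767439-7767684 (315, 410 and 603 reads). The exon with the Rag-binding segment had 263, 404 and 552 reads, a ratio of 1.40 (1.23 to 1.59). Since Tfe3 is X-linked, Xist, the RNA of the inactive X, is given beside it, at 0.0177, 178 and 89.3 RPKM in MEF, Dox (-) and Dox (+), and its part in the Tfe3 values was not tested. The Y-linked gene Ddx3y was at 31.0, 127 and 110 RPKM, so both knock-in libraries held reads of Xist and of Ddx3y. Whether these cultures mixed female and male cells, or host and transgenic cells, was not tested. Both genes were chosen after their values were seen.

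Tfeb, the member best known for lysosome and autophagy genes, was low throughout. It had 508, 644 and 392 reads in MEF, Dox (-) and Dox (+), or 2.17, 2.75 and 1.71 RPKM. Dox (-) was thus the highest and Dox (+) the lowest, and Dox (+) was 1.61-fold lower than Dox (-) (1.41 to 1.83). Of the 19 exons with reads above the limit of 3, 15 were lower in Dox (+), 0 were higher and 4 had an interval that included 1. Many of these were overlapping versions of the same exon and recounted the same reads. The exon with its Rag-binding segment had 11, 24 and 9 reads, a ratio of 0.384 (0.157 to 0.855). No exon moved Tfeb past 4-fold by level, since its highest exon was at 27.7, 32.5 and 23.1 RPKM.

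Tfec is the family member known from macrophages. It had 0 reads in MEF, 449 in Dox (-) and 19 in Dox (+), and each of its 7 exons was lower in Dox (+) than in Dox (-). Over all exons Dox (+) was 23.1-fold lower (14.6 to 38.7), and by highest exon, 10.4 against 1.20 RPKM, it was 8.66-fold lower. These were different exons. On the 148-base exon, highest in Dox (-), Tfec was 22.5-fold lower in Dox (+), with 69 and 3 reads. Its last exon, with 0, 209 and 8 reads, was 69.7-fold higher in Dox (-) than 3 reads, the limit used for a count of 0. The interval of its ratio between Dox (-) and MEF had a lower bound of 56.2. Tfec was therefore seen almost entirely in 1 library.

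Macrophage markers followed the same order. The levels of 12 markers, among them Ptprc, Csf1r and Lyz2, summed to 60.1 RPKM in MEF, 17991 in Dox (-) and 637 in Dox (+). Called lower in Dox (+) than in Dox (-) were 12 of 12, against 5.41% of all genes. Ptprc (CD45), the pan-leukocyte surface marker, was at 0.0655, 67.6 and 0.770 RPKM. The part of such cells in the Tfec values was not tested, and in bulk RNA fewer cells of a type and less RNA per cell cannot be told apart. Between Dox (+) and MEF, 6 of the 12 markers were tested and 5 were called higher in Dox (+), against 6.56% of all genes.

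Read over the same 76- and 148-base exons, the family changed its make-up. In MEF, Tfe3 held 83.8% of 1000 family reads, Tfeb 15.0%, Mitf 1.20% and Tfec 0. In Dox (-), Tfe3 held 65.1% of 1471 reads, Mitf 15.4%, Tfeb 13.1% and Tfec 6.46%. In Dox (+), Mitf held 91.1% of 13050 reads, Tfe3 8.01%, Tfeb 0.789% and Tfec 0.0536%. The order of Mitf and Tfe3 was thus reversed in Dox (+). On the 76-base exon alone, Tfe3 itself stood at 110, 124 and 133 RPKM, so its smaller share in Dox (+) went with more Mitf reads and not with fewer of its own.

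Flcn, the folliculin gene on chromosome 11, had 6569, 7039 and 6246 reads in MEF, Dox (-) and Dox (+). Its highest exon was at 101 RPKM in all 3 libraries, but it was not the same exon in each. The 106-base exon, highest in MEF, stood at 101, 87.6 and 84.9 RPKM. The 92-base exon, highest in both knock-in libraries, stood at 91.5, 101 and 101 RPKM. Over all exons Dox (+) was 0.908 times Dox (-) (0.877 to 0.939), with 2 of 18 exons higher, 4 lower and 12 not distinct from 1. The long last exon had 2556, 2337 and 1753 reads, a ratio of 0.767 (0.721 to 0.817). Toward the 5′ end, the 147-base exon at chr11:59803749-59803895 had 164, 184 and 231 reads, a ratio of 1.28 (1.05 to 1.57). Flcn was thus slightly lower in Dox (+) over all exons, though not along its whole length, and level between the knock-in libraries by its highest exon.

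The folliculin partners differed from each other. Fnip1 had 5841 reads in MEF, 8476 in Dox (-) and 6095 in Dox (+). It was 1.36-fold lower in Dox (+) than in Dox (-) over all exons (1.32 to 1.41), with 13 of 20 exons lower and 0 higher, although its highest exon was level at 63.3 and 64.4 RPKM. Fnip2 had 3104, 4362 and 12863 reads. Dox (+) stood 3.02-fold above Dox (-) (2.91 to 3.12), and 20 of 20 exons were higher, with ratios from 2.42 to 6.52.

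The difference along Fnip2 was uneven. The 127-base exon at chr3:79518065-79518191 had 17, 40 and 255 reads, a ratio of 6.52 (4.66 to 9.34), whereas the long last exon had 1816, 2067 and 4891 reads, a ratio of 2.42 (2.30 to 2.55). By its highest exon Fnip2 stood at 17.2, 35.2 and 106 RPKM, below 4-fold between the knock-in libraries. These were different exons, and on the exon highest in Dox (+) the ratio to Dox (-) was 3.75 (2.97 to 4.77). Against MEF the level was 6.17-fold higher in Dox (+), which passed the 4-fold call.

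The 2 partners were then compared on 7 exon pairs that have the same order and the same length in both genes. This comparison was added after the values had been seen. Fnip2 took 33.4% of the reads of both genes in MEF (30.8 to 36.1, 414 against 825 reads), 28.2% in Dox (-) (26.4 to 30.0, 694 against 1770) and 64.4% in Dox (+) (62.9 to 65.9, 2580 against 1425). Pair by pair the share ran from 27.9% to 41.6% in MEF, from 22.8% to 35.7% in Dox (-) and from 53.1% to 72.6% in Dox (+). The ranges of MEF and Dox (-) overlapped, and that of Dox (+) lay above both. The exon pairs of a library are not replicates, so these ranges do not measure variation between cultures. The paired exons were identical at 62.2% to 75.0% of bases, with no run over 20 bases.

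The Rag GTPases RagC and RagD are the subunits that folliculin acts on, and each pairs with RagA or RagB. One of their matching exons is shown, from the 4 pairs used below, so that the distance between these close copies can be seen. Capitals mark the 92 of 115 bases that are identical.
Rragc, chr4:123923960-123924074, plus strand: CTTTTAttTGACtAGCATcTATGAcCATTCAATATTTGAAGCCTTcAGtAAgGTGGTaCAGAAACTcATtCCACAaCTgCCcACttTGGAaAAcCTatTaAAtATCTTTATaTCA
Rragd, chr4:33005134-33005248, plus strand: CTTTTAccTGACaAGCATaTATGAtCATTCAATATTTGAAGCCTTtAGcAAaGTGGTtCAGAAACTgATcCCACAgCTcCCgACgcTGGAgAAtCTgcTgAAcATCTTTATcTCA
Over the 4 pairs 76.5% to 80.0% of bases were identical, and the longest identical run was 20.

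By RPKM over all exons, Rragc was the most abundant of the 9 genes in MEF and Dox (-) and hardly differed between libraries. It had 17311, 17854 and 17369 reads in MEF, Dox (-) and Dox (+), a ratio of 0.995 (0.974 to 1.02) between the knock-in libraries. Rragd, known as a target of MiT/TFE factors, had 560, 865 and 4164 reads. Dox (+) stood 4.92-fold above Dox (-) (4.57 to 5.30) and 7.60-fold above MEF (6.96 to 8.32). By highest exon it stood at 3.88, 7.15 and 46.1 RPKM, so that it was above 10 RPKM only in Dox (+).

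Each of the 10 Rragd exons was higher in Dox (+), though some were versions of the same first exon with the same reads. The 143-base exon at chr4:33007070-33007212 had 15, 29 and 283 reads, a ratio of 9.98 (6.80 to 15.2), and the long last exon had 460, 652 and 2424 reads, a ratio of 3.80 (3.49 to 4.15). The first exon at chr4:32983155-32983607 had 0, 2 and 53 reads, and its ratio of 27.1 (7.14 to 230) had a wide interval. All exons thus pointed one way, with the smallest ratio in the last exon, as in Fnip2.

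On the 4 matching exons Rragd took 1.40% of the Rragc and Rragd reads in MEF (1.13 to 1.74, 80 against 5616 reads), 2.64% in Dox (-) (2.26 to 3.08, 156 against 5753) and 16.2% in Dox (+) (15.4 to 17.1, 1139 against 5885). This comparison was also added after the values had been seen. By pair the shares were 1.16% to 1.64%, 2.19% to 3.69% and 13.8% to 18.4%, and the 3 ranges did not overlap. Here too the pairs are not replicates, and their ranges do not measure variation between cultures. Rragc remained the main form in every library, also where Rragd was highest.

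**Figure D3:**
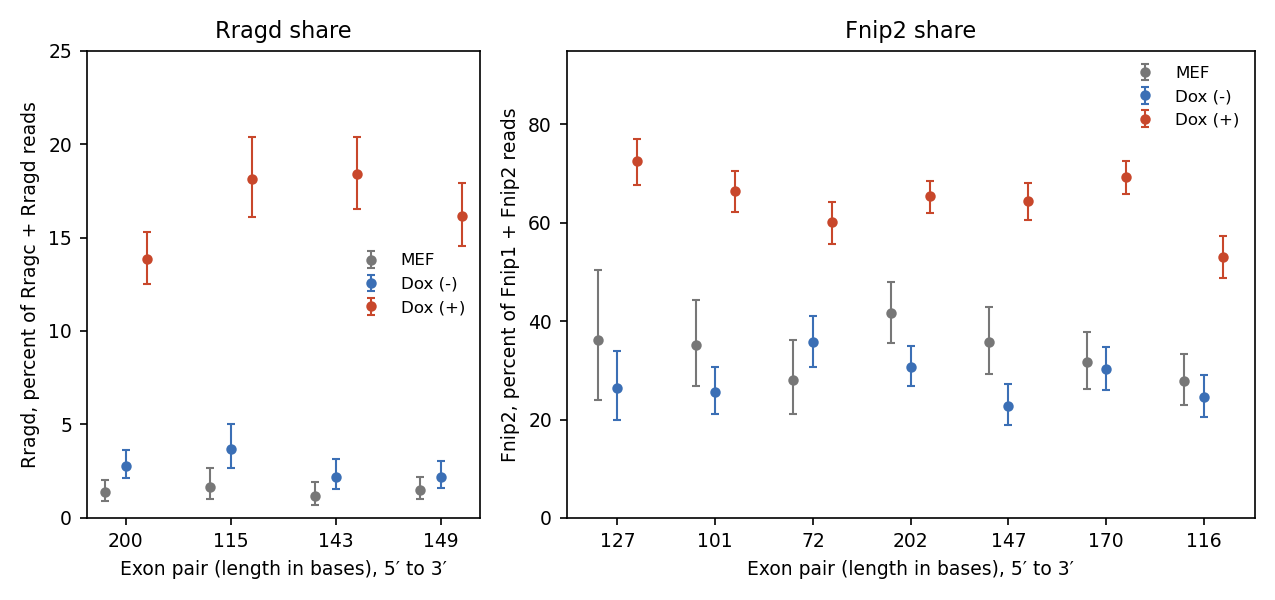
Share of Rragd in the reads of Rragc and Rragd (left) and of Fnip2 in the reads of Fnip1 and Fnip2 (right), in percent, for exon pairs of equal length named by that length, in the MEF, Dox (-) and Dox (+) libraries; bars are Wilson 95% intervals. Dox (+) lay above the other libraries in all 4 Rag pairs (13.8% to 18.4%) and all 7 Fnip pairs (53.1% to 72.6%).

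**Figure D4:**
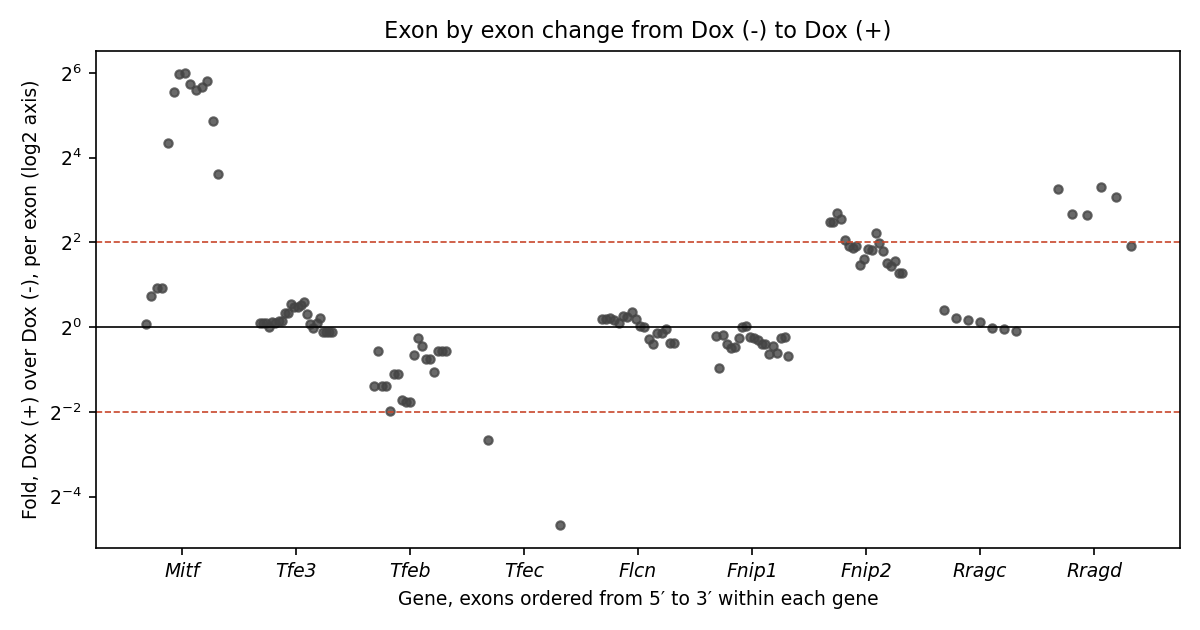
Ratio of Dox (+) to Dox (-) for each exon with more than 3 reads in both libraries (y axis, log2 scale), ordered from 5′ to 3′ within each gene; the solid line is 1 and the dashed lines are 4-fold. All 20 Fnip2 exons and the 6 Rragd exons shown lay above 1, the Tfeb exons lay below it, and Tfe3, Flcn and Rragc lay close to it.

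Compared with MEF, Dox (+) had 3 of the 8 genes tested called higher, Mitf, Fnip2 and Rragd, against 6.56% of 12935 genes, and 0 called lower, against 3.4%. At 2-fold the counts were the same, 3 higher against 20.2% and 0 lower against 8.98%. Mitf, the induced gene, is again counted among the 3. Tfec was at or below 10 RPKM in both and was not tested. Dox (-) had 2 of 8 called higher than MEF, Mitf and Tfec, against 8.26% of 13227 genes, and 0 lower, against 1.21%. At 2-fold Fnip2 was added, at 2.04-fold, giving 3 of 8 against 17.3%, and 0 were lower against 7.93%. The comparisons share libraries and are not independent of each other.

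The libraries also differed in coverage along transcripts. Over 4947 genes with at least 8 exons, the median log2 ratio of the second exon to the last but 1 was -1.18 in MEF, -0.86 in Dox (-) and -0.58 in Dox (+), on RPKM plus 1 and with at least 20 reads in the later exon. It was -2.02, -1.28 and -0.26 for Fnip2, whose second exon had only 17 reads in MEF. Fnip2 thus had the same order of libraries as the median gene, and so did Tfe3, Tfeb, Flcn and Fnip1. Mitf and Rragd had the opposite order. On the annotated Mitf isoform used, the second exon was exon 1B1b, which M-Mitf lacks, and the later one was a shared exon. The Mitf values therefore reflect isoforms and are no measure of coverage. For Rragd the values were -2.29, -2.36 and -2.50, but its second exon had only 0, 2 and 53 reads and is not held by every annotated isoform. The part of coverage in the ratios of the 9 genes, among them Flcn, Fnip2 and Rragd, was not tested.

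Other genes of nutrient sensing at the lysosome were read from a list of 33, holding the Rag dimer partners, the Ragulator complex, the GATOR and KICSTOR complexes, sestrins and mTORC1. Of 31 tested in Dox (+) against Dox (-), 0 were called higher and 1 lower, and the median log2 fold change was 0.26, near the 0.23 of all genes. The 1 called lower was Sesn1, a sestrin that restrains GATOR2, at 34.4 RPKM in MEF, 51.5 in Dox (-) and 12.9 in Dox (+). At 2-fold, 1 was higher and 2 were lower, against 10.8% and 11.1% of all genes. At 4-fold the shares over all genes were 1.64% higher and 5.41% lower. Itfg2, a KICSTOR subunit, was highest with 45.7, 37.0 and 83.8 RPKM, followed by Kptn of the same complex with 61.4, 33.0 and 60.3.

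The small GTPases that pair with RagC and RagD did not share the Rragd pattern. Rraga was at 103, 93.2 and 109 RPKM in MEF, Dox (-) and Dox (+), and Rragb at 11.8, 2.90 and 3.46. Rragb was therefore highest in the library labelled MEF and low in both knock-in libraries. These 2 genes were singled out after their values had been seen.

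A second list held 20 genes whose products act on MiT/TFE proteins, such as kinases, calcineurin subunits and 14-3-3 proteins. Of 20 tested, 0 were called in either direction at 4-fold or at 2-fold, with a median log2 fold change of 0.50. Over all genes, 1.64% were higher and 5.41% lower at 4-fold, 10.8% and 11.1% at 2-fold, and the median was 0.23. With shares this small, a count of 0 among 20 genes says little at 4-fold. The lowest were Ppp3ca, the catalytic subunit of calcineurin, at 210, 319 and 198 RPKM, and Map4k3, a kinase of the amino acid response, with a log2 fold change of -0.32. The highest was Cdk6, a cell cycle kinase, at 10.9, 28.3 and 51.7 RPKM.

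Of 24 lysosome and autophagy genes known as MiT/TFE targets, 23 were tested, 1 was called higher and 0 lower at 4-fold, and the median log2 fold change was 0.30. The called gene was Atp6v0d2, a membrane subunit of the vacuolar proton pump, with a log2 fold change of 6.66. At 2-fold, 3 were higher, with Sqstm1, an autophagy receptor, at 4382, 2582 and 8218 RPKM and Gla, a lysosomal galactosidase, at 109, 86.3 and 199. The 1 lower at 2-fold was Acp5, at 5.21, 10.6 and 3.91 RPKM. The share past 2-fold over all genes was 10.8% higher and 11.1% lower, and past 4-fold it was 1.64% and 5.41%.

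**Figure D5:**
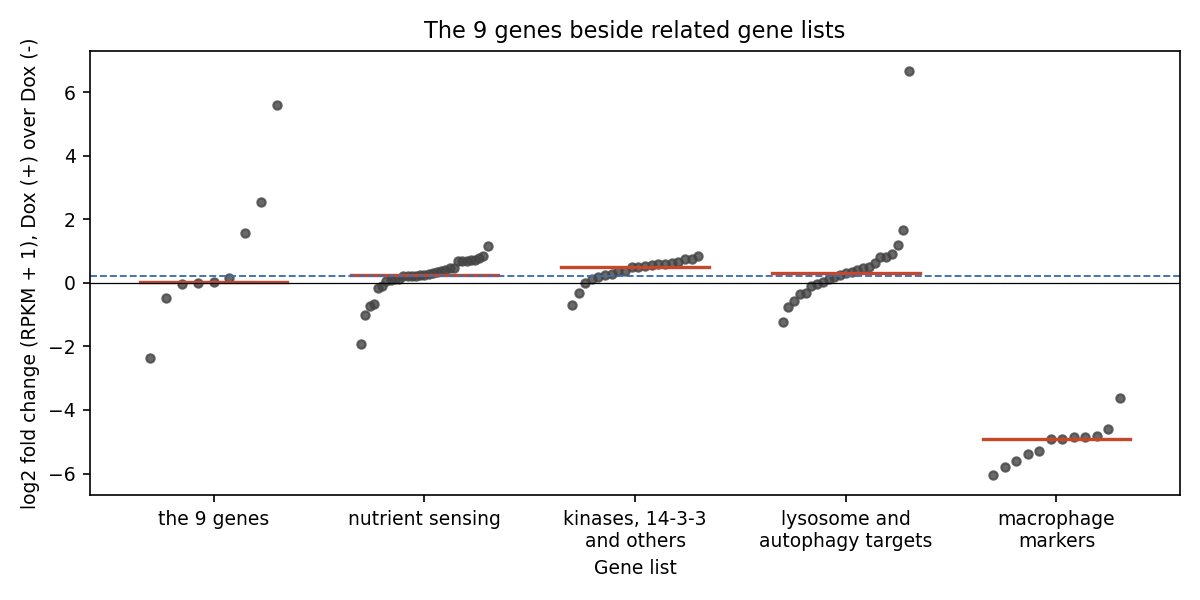
log2 fold change from Dox (-) to Dox (+) on RPKM plus 1 (y axis) for each tested gene of 5 lists, sorted within a list; red lines are list medians, and the dashed line is the median of all genes, 0.23. Mitf, Rragd and Fnip2 stood above the other members at 5.60, 2.53 and 1.57, the nutrient sensing and protein control lists had medians of 0.26 and 0.50, and the macrophage markers lay at or below -3.62.

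Other markers of the cultures moved as well. Of 8 fibroblast markers, 5 were called lower in Dox (+) than in Dox (-) (Col1a1, Col1a2, Col3a1, Lum and Postn) and 0 higher. The summed level of the 8 was 19668, 52657 and 13058 RPKM in MEF, Dox (-) and Dox (+). Thy1 went the other way, at 726, 2014 and 3608 RPKM, without passing the call. Against MEF, 3 were called higher in Dox (+) (Dcn, Lum and Thy1) and 0 lower, against 6.56% and 3.4% of all genes. All 8 had reads in every library labelled as fibroblasts. Of 9 melanocyte markers, 4 were tested and 3 were called higher, Tyrp1, Mlana and Trpm1, and the sum was 5.04, 15.0 and 275 RPKM. The untested ones, Tyr, Dct, Kit, Sox10 and Slc45a2, stayed below 10 RPKM. Among them Sox10 was lower in Dox (+), at 0.0514, 6.69 and 1.66 RPKM. The rest were higher in Dox (+) than in Dox (-), at 3.64 RPKM or less. Thy1 and the untested markers were singled out after their values had been seen. Of 6 osteoclast markers, 3 were tested, 0 were called higher and 1 lower (Mmp9), and the sum was 23.8, 297 and 459 RPKM, most of it Ctsk. Over all genes, 1.64% were called higher and 5.41% lower in Dox (+) against Dox (-). The part of these differences in the values of the 9 genes was not tested.

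For members above 10 RPKM in some library and over 2-fold apart between libraries, the 3 protein-coding genes nearest in pattern over the 3 libraries were listed, by Euclidean distance between centred log2 values of RPKM plus 1. For Rragd these were 2210418O10Rik (distance 0.126), Stac (0.221) and Oit3 (0.225). For Fnip2 they were Slc6a8, a creatine transporter (0.0504), Myo5a, a melanosome motor (0.0749), and Pdxk, the pyridoxal kinase (0.0962). For Tfec they were the chemokine receptor Cxcr4 (0.0487), Otulinl (0.0501) and the adhesion molecule Chl1 (0.0629). For Mitf the nearest, Chchd10, Lce1g and Bace2, were far away, at 1.73 to 2.14. With only 3 libraries these distances describe little more than the order and size of 3 values.

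Promoter windows from RefSeq (GRCm38.p6; 250 bases before to 50 after each start) were searched on both strands, and 14 windows matched the 9 genes. The E-box CACGTG was found in 2 of the 14, in Rragc and Fnip1, and in 7.15% of all 32851 windows. The form CATGTG was in 0 of 14 and 14.2% of all, and TCACGTGA, which contains CACGTG, in 0 of 14 and 0.974% of all. The stretches are shown because neither gene was among those higher in Dox (+); capitals mark the E-box.
Rragc, chr4:123917309-123917338, plus strand, E-box 112 bases upstream of the start: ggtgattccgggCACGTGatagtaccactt
Fnip1, chr11:54438092-54438121, plus strand, E-box 75 bases upstream of the start: tcagtttgctgcCACGTGatacggctcgtc
No such letters were in the windows of Rragd and Fnip2, which says nothing of binding elsewhere.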

How the data were processed

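Poly(A) RNA from each culture was made into TruSeq v2 libraries, whose strand handling is not stated, and aligned by the authors to mm10 with TopHat 2.0.10. The authors counted reads overlapping each exon with bedtools and deposited them as RPKM. Reads that span exons count in each, and very short exons gain level. 1 column of the table matched no sample name and was not used. Exons were joined to GENCODE M21 by identifier: 228132 of 234718 matched.

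Whole reads were recovered from RPKM, exon length and a depth of 45000000 aligned reads (MEF and Dox (-)) or 44000000 (Dox (+)); 97.2% to 97.4% of values came out whole within 0.05. The limit of 3 reads for a count of 0 was 0.444 to 0.455 RPKM on a 150-base exon. Ratios of reads had exact conditional binomial intervals and shares Wilson intervals. Log2 fold changes used a pseudocount of 1. "Higher" or "lower" for an exon meant an interval excluding 1. Summed reads used non-overlapping exons. Counts of exons include overlapping versions of the same exon and are not independent of each other. Only 1 member exon, in Rragc, overlapped another gene.

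Genes were called by 4-fold and 10 RPKM. On simulated data with 200 genes changed 8-fold in Dox (+) against Dox (-), 199 were recovered and 4 unchanged of 12985 tested were called. That change was set above the 4-fold cutoff, and 1 library per group gives no measure of variation between cultures. The simulated counts are therefore no error rate for the real comparison. Named genes were the members, list genes past the 4-fold call, the 2 lowest and 2 highest of each pathway list, and the nearest genes (2 list genes under this rule are not reported here); lists for nutrient sensing, control of MiT/TFE proteins, their targets and 4 marker sets are given with their counts. Members and lists were chosen with earlier results of these data known. Alternatives changed the pseudocount, thresholds, gene level, scaling and shortest exon. Software was SciPy 1.17.1, NumPy 2.4.6 and pandas 2.3.3 under Python 3.11.15.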

Additional observations from a re-analysis of the deposited data

How the results depend on the processing

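The count called lower in Dox (+) against Dox (-), 1 (Tfec), was 0 with reads summed over non-overlapping exons and 0 with the median over exons, since Tfec stayed below 10 RPKM by both measures. The count called higher in Dox (-) against MEF, 2 (Mitf and Tfec), was 0 with each of these measures for the same reason. The other 38 counts stayed within 1.5 times the reported one. The shortest-exon alternative (at least 50 bases) was added after seeing the data. In Dox (+) against Dox (-), the log2 fold change ran from 2.03 to 2.67 for Rragd, from 1.34 to 1.77 for Fnip2, from 4.56 to 5.64 for Mitf, from -3.01 to -1.31 for Tfec and from -0.70 to -0.41 for Tfeb. The sign changed in at least 1 alternative for Tfe3 (-0.09 to 0.15), Flcn (-0.22 to 0.00), Fnip1 (-0.42 to 0.03) and Rragc (-0.27 to 0.10), for which no direction is given by level. Rescaling by the median ratio was among these alternatives, and the cause of the other changes was not tested. No paired analysis was possible because each group had 1 library. Comparisons with the primary melanocytes and the identity of the proteins were not run.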
